A study of Mus musculus with 8 samples.

Results

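The genes described here carry out cholesterol synthesis, sterol uptake and sterol transfer in mouse liver, and were taken as a named list of 30 genes from the mevalonate pathway to the proteins that take up, move or esterify sterols. Of the 30, 27 were each named alone by a probe set of the array and form the set described, out of 19938 genes tested, and Acat2, Soat1 and Soat2 were not analysed here. Liver RNA came from 8 female C57B1/6J mice, all of them ovariectomized (OVX) at 7 weeks of age as a model of the loss of ovarian estrogen. Diets began 1 week after surgery and lasted 3 months. A high fat diet (HFD) was given to 4 mice, and 4 had this diet with white button mushroom powder and less corn starch (HFD+WBM). Mice were pair-fed and fasted before sacrifice, each array held the liver of 1 mouse, and sham-operated mice were not analysed here. The comparison asked what the mushroom diet did to these transcripts in OVX mice fed with HFD.

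Liver makes cholesterol from acetyl-CoA. Mevalonate is built up to farnesyl diphosphate, farnesyl diphosphate units are joined to squalene, squalene is closed to lanosterol, and lanosterol is trimmed and reduced to cholesterol, while side branches make dolichol, ubiquinone and the lipids that anchor proteins to membranes. The enzymes are known targets of the transcription factor SREBP2, which SCAP carries out of the endoplasmic reticulum when its sterols run low and which the INSIG proteins hold back when sterols are plentiful, so that the enzymes are known to move together.

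No enzyme of cholesterol synthesis passed the test between the diets, and the livers of single mice differed more than the diets did. The estimate was lower in HFD+WBM for 17 of the 18 sterol enzymes measured, with a median log2 difference (HFD+WBM minus HFD) of -0.20, against 0.01 over all genes tested. Of the 27 genes, 2 were lower in HFD+WBM at a p under 0.05 before adjustment, Dhdds of dolichol synthesis and Osbp, the oxysterol-binding protein, and both lie outside the sterol enzymes. One HFD liver, that of HFD replicate 1, held the lowest HFD value of all 18 sterol enzymes. Without it 7 of these enzymes were lower at that threshold, where 6.85% of all genes were, and 0 passed after adjustment over all genes. That mouse was left out after its values were seen, and its removal favours a lower estimate for HFD+WBM by construction. HFD+WBM replicate 2 was the lowest of its diet in 17 of the 18. Leaving it out instead gave a median of -0.05 for the enzymes. This mouse is singled out here by its low values, so its removal favours a higher estimate for HFD+WBM by construction. Among the 27 genes 0 were then lower, as Dhdds and Osbp lost their calls. That also happened without HFD replicate 4 or without HFD+WBM replicate 3.

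The tests were made with limma on the log2 values of all 19938 genes, and its standard errors (SE) borrow information on the spread from all genes. Before adjustment, 6.9% of all genes were lower and 4.85% were higher in HFD+WBM at a p under 0.05, so that 2 lower and 0 higher among 27 is near or below the share of all genes. At the study's thresholds, a p under 0.05 and a change of at least 2-fold, 0.762% of all genes and 0 of the 27 were called. After Benjamini-Hochberg adjustment over all genes 0.0% of all genes passed in limma, and the smallest adjusted p among the 27 was 0.39. A p that misses the threshold does not show that a gene did not differ, and with 4 mice per diet an exact permutation test of 1 gene cannot go below p = 0.029 (two-sided).

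Across the series, the array medians lay between 7.04 and 7.22 on the log2 scale and the arrays correlated pairwise at 0.920 to 0.973 over probe sets. The array that stood farthest from the others was HFD replicate 3, with an SD over genes of 0.68 against 0.38 to 0.50 for the rest, and HFD replicate 1 lay at 0.41. The label of liver was checked on hepatocyte genes: the mean of the 8 measured of 10 listed ran from 12.86 to 13.13 in HFD and from 12.97 to 13.13 in HFD+WBM, Alb lay between 13.96 and 14.22, and 0 of the 8 passed the test. Among 13 Kupffer cell and macrophage genes, 11 were lower in HFD+WBM at a p under 0.05 before adjustment, where 6.9% of all genes were. Their median log2 difference was -0.67, with a list mean of 9.17 to 9.82 in HFD against 8.72 to 9.16 in HFD+WBM. On the same threshold 1 of 5 sinusoidal endothelial genes was lower (Lyve1), with a list mean of 9.19 to 9.81 against 8.95 to 9.43. Of 5 stellate cell genes 2 were lower (Lrat and Col1a1). The others, Des (0.33), Dcn (-0.15) and Reln (-0.14), did not pass, and the estimate of Des lay above 0. The stellate list had a median log2 difference of -0.15, with a mean of 8.96 to 9.50 in HFD against 8.69 to 9.19 in HFD+WBM. No gene of these cell type lists passed adjustment over all genes. The part of these cell type differences in the results on sterol genes was not tested, and in whole liver fewer cells of a type and less RNA per cell cannot be told apart. All levels given here are log2 values of one probe set, which can be compared between mice but not between genes.

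**Figure D1:**
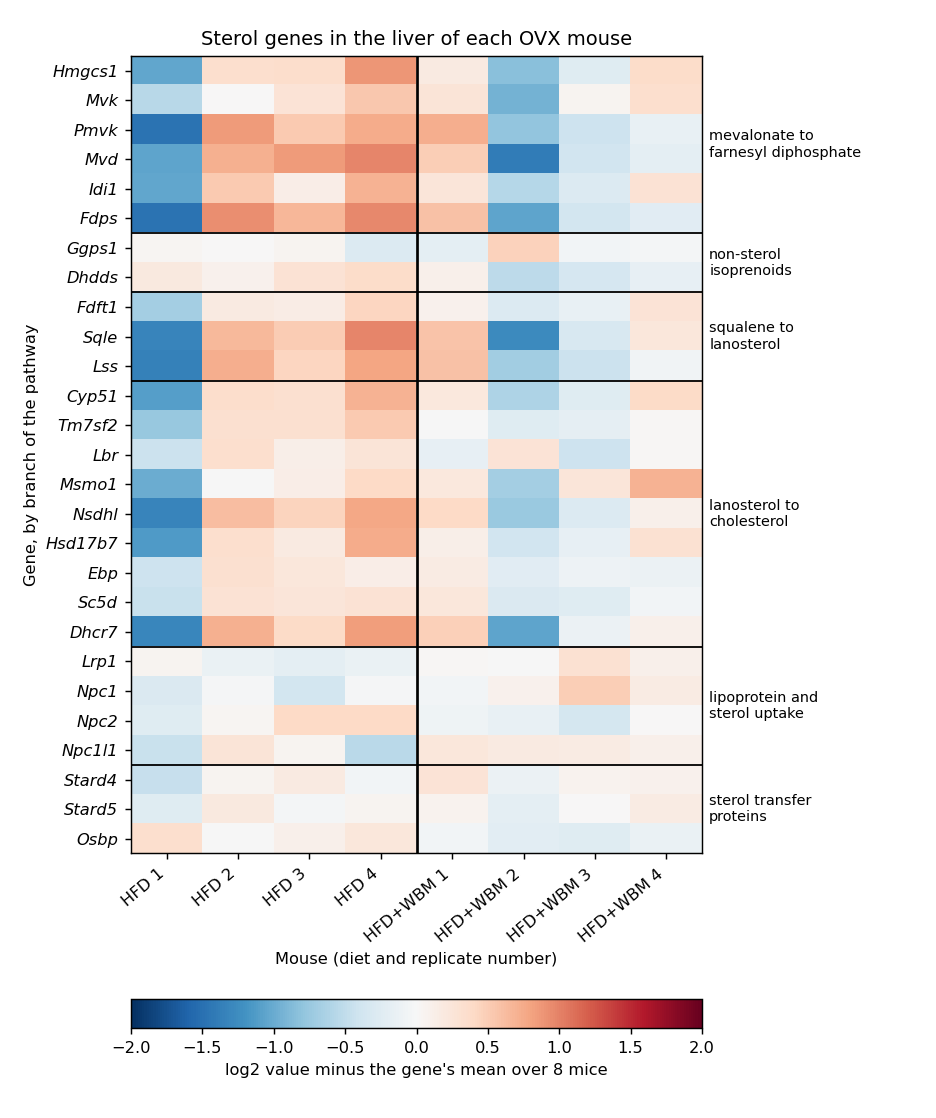
Each row is 1 of the 27 genes, grouped by branch, and each column is 1 mouse. Colour gives the log2 value minus the mean of that gene over the 8 mice. Among the sterol enzymes the column of HFD replicate 1 is blue in every row and that of HFD+WBM replicate 2 in every row but Lbr, while the bottom rows, of uptake and transfer genes, are pale throughout.

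The first branch, from mevalonate to farnesyl diphosphate, was represented by 6 enzymes, and 0 of the 6 passed. All 6 estimates lay below 0, from -0.74 for Mvd to -0.14 for Mvk, with a median of -0.29. Mvd, which decarboxylates diphosphomevalonate to the isoprene unit, had the lowest estimate of the 27 genes. Its log2 values were 7.22, 8.99, 9.12 and 9.25 in HFD replicates 1 to 4, and 8.77, 6.88, 7.89 and 8.08 in HFD+WBM replicates 1 to 4. Of the HFD mice, 3 lay above every HFD+WBM mouse, and HFD replicate 1 lay below all of these except HFD+WBM replicate 2, so the groups overlapped. The mean was 8.64 ± 0.96 in HFD and 7.90 ± 0.78 in HFD+WBM (SD, n = 4 each). The difference of -0.74 (SE 0.51), 1.67-fold lower in HFD+WBM with a 95% interval of -1.87 to 0.39, had an adjusted p of 0.56 in limma and an exact permutation p of 0.29.

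Fdps, the farnesyl diphosphate synthase at the branch point to sterols, dolichol and prenylated proteins, had the widest range of the 27 genes over the 8 mice, at 2.44 on the log2 scale. Its log2 values were 10.24, 12.65, 12.38 and 12.69 in HFD, and 12.31, 10.67, 11.35 and 11.49 in HFD+WBM. HFD replicate 1 was the lowest of all mice here, while the 3 other HFD mice lay above the 4 HFD+WBM mice. The difference between the diets was -0.54 (SE 0.55), with a 95% interval of -1.77 to 0.70 and an adjusted p of 0.71 in limma. Pmvk, the phosphomevalonate kinase, gave log2 values of 7.78, 10.11, 9.78 and 10.01 in HFD, and of 9.99, 8.47, 8.85 and 9.12 in HFD+WBM. HFD replicate 1 lay far below the other HFD mice, and HFD+WBM replicate 1 lay above the other HFD+WBM mice and among the upper HFD mice. The difference was -0.31 (SE 0.52), with an adjusted p of 0.83 in limma. The estimates of the other 3 enzymes were -0.26 for Hmgcs1, the synthase that supplies the precursor of mevalonate, -0.16 for Idi1, the isopentenyl diphosphate isomerase, and -0.14 for Mvk, the mevalonate kinase, and a second probe set of Idi1 gave -0.15.

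In the middle branch, from squalene to lanosterol, 0 of 3 enzymes passed, and the estimates were -0.40 for Sqle, -0.30 for Lss and -0.04 for Fdft1. Sqle, the squalene epoxidase and a rate-limiting step of the pathway, gave log2 values of 8.64, 10.61, 10.48 and 10.95 in HFD, and of 10.53, 8.70, 9.64 and 10.19 in HFD+WBM. The lowest mouse of each diet, HFD replicate 1 and HFD+WBM replicate 2, had nearly the same value, and the groups overlapped over most of their range. The difference of -0.40 (SE 0.54) had a 95% interval of -1.60 to 0.80 and an adjusted p of 0.77 in limma. Lss, the lanosterol synthase, ran from 8.55 to 10.68 in HFD and from 9.20 to 10.48 in HFD+WBM. Fdft1, the squalene synthase that commits farnesyl diphosphate to sterols, ran from 10.74 to 11.85 and from 11.14 to 11.69, and a second probe set gave a difference of -0.06.

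The last branch, from lanosterol to cholesterol, held 9 enzymes, of which 0 passed and 8 had estimates below 0, with a median of -0.14. Dhcr7, the reductase that completes cholesterol, had the largest estimate in size at -0.30 (SE 0.49). Its log2 values were 9.08, 11.10, 10.77 and 11.22 in HFD, and 10.86, 9.33, 10.28 and 10.49 in HFD+WBM. The same mice as above were lowest, HFD replicate 1 in one group and HFD+WBM replicate 2 in the other. The interval of this difference ran from -1.39 to 0.79, and the adjusted p was 0.82 in limma. The other estimates were -0.26 for the sterol dehydrogenase Nsdhl, -0.21 and -0.14 for the sterol reductases Tm7sf2 and Lbr, -0.18 for the desaturase Sc5d, -0.14 for both the demethylase Cyp51 and the isomerase Ebp, and -0.07 for the reductase Hsd17b7. Msmo1, the methylsterol monooxygenase, was the exception at 0.23 (SE 0.35), with HFD+WBM replicate 4 highest of the 8 mice at 12.83, and its estimate turned to -0.06 without HFD replicate 1.

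**Figure D2:**
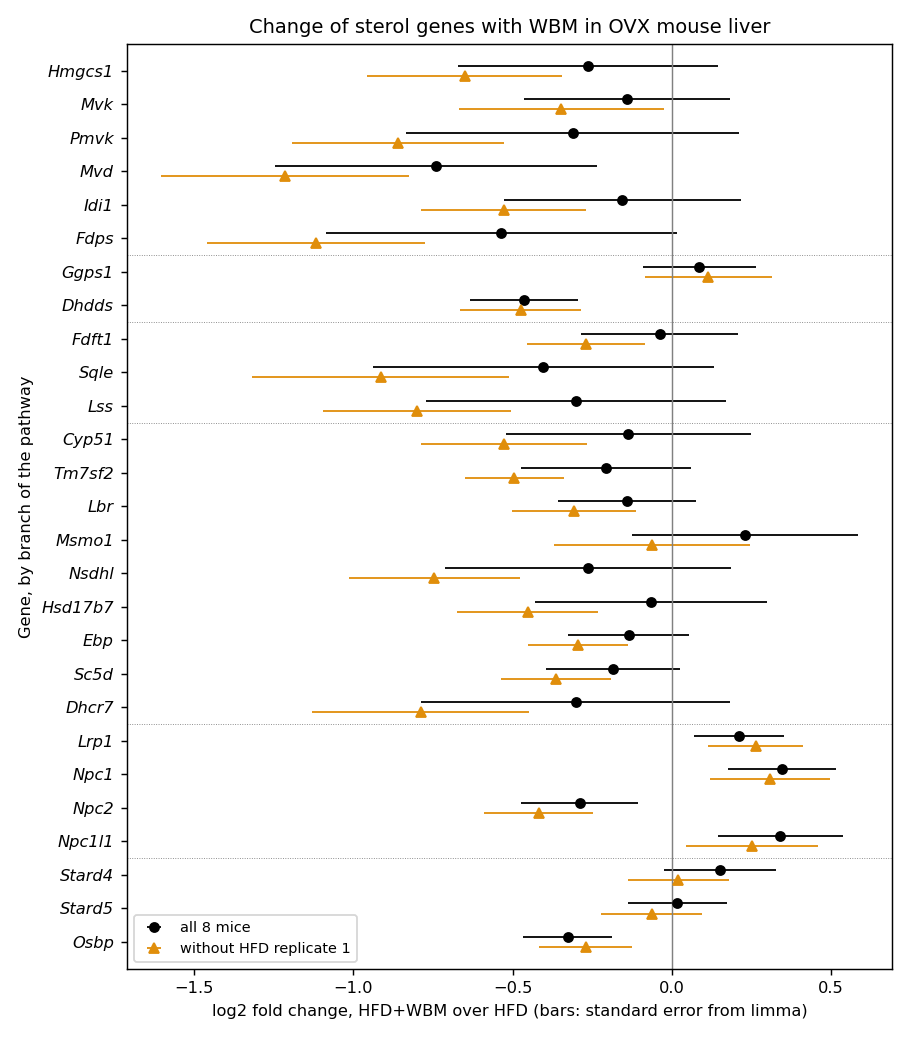
Black circles give the log2 fold change (HFD+WBM over HFD) of each of the 27 genes with all 8 mice, and orange triangles give it without HFD replicate 1, with bars for the standard error from limma and dotted lines between branches. The triangle lies to the left of the circle in all 18 sterol enzymes, while the circle and triangle of Dhdds nearly coincide.

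The sterol enzymes varied together from mouse to mouse. Over the 8 mice their range on the log2 scale was 1.84 at the median (0.73 to 2.44), against 0.74 for the 9 other genes of the set (0.44 to 0.89) and 0.94 over all genes tested. The mean log2 value of the 18 enzymes was 9.62, 11.07, 10.96 and 11.26 in HFD replicates 1 to 4, and 10.91, 9.95, 10.39 and 10.74 in HFD+WBM replicates 1 to 4. HFD replicate 1 lay at the bottom and the 3 other HFD mice at the top of this order, with the 4 HFD+WBM mice between them. The group means were 10.72 ± 0.75 in HFD and 10.50 ± 0.42 in HFD+WBM (SD, n = 4 each), a difference smaller than either SD. The same mean over the 9 other genes was 9.64 ± 0.08 in HFD and 9.65 ± 0.04 in HFD+WBM.

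In all 3 sterol branches HFD replicate 1 had the lowest mean of the 8 mice. For the mevalonate branch this mean was 8.99, where HFD replicates 2 to 4 had 10.56 to 10.90, and it ran from 9.16 to 10.51 in HFD+WBM. In the squalene branch it was 9.31 against 10.79 to 11.16, with 9.68 to 10.84 in HFD+WBM. In the lanosterol branch it was 10.14 against 11.28 to 11.53, with 10.58 to 11.19 in HFD+WBM. HFD+WBM replicate 2 was the lowest of its diet in each of the 3 branches, and HFD replicate 4 was the highest of the 8 mice in each.

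Counted by gene, HFD replicate 1 was the lowest HFD mouse in 18 of 18 sterol enzymes, against 23.6% of all genes, and the lowest of all 8 mice in 16, the exceptions being Mvk and Mvd. Its log2 value minus the mean of the 3 other HFD mice was -1.55 at the median enzyme (-2.33 to -0.64), -0.15 at the median of the 9 other genes (-0.52 to 0.23) and 0.01 over all genes. HFD replicate 1 was also the lowest HFD mouse in 4 of 6 genes of the SREBP factors and their control. The same held in 4 of 10 other sterol handling genes. For cell type markers this held in 4 of 5 sinusoidal endothelial, 3 of 5 stellate cell and 4 of 8 hepatocyte genes. It held in 1 of 13 Kupffer cell and macrophage genes and in 0 of 8 genes that use isoprenoids. HFD+WBM replicate 2 was the lowest of its diet in 17 of the 18 enzymes, against 20.6% of all genes, the exception being Lbr. HFD replicate 4 was the highest HFD mouse in 14 enzymes, 77.8% of them, against 22.1% of all genes. The enzymes share mice and regulators, so these counts describe the mice and are no set of independent results.

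Leaving out HFD replicate 1 therefore changed the comparison of the enzymes most. The median log2 difference of the 18 enzymes moved from -0.20 to -0.53, with all 18 below 0, and the branch medians became -0.76 for the mevalonate branch, -0.80 for the squalene branch and -0.45 for the lanosterol branch. At a p under 0.05 before adjustment 7 sterol enzymes were then lower, Pmvk, Mvd and Fdps of the first branch, Lss of the middle branch, and Tm7sf2, Nsdhl and Dhcr7 of the last. Dhdds and Npc2 were lower too, which made 9 of 27 lower and 0 higher, where 6.85% of all genes were lower and 4.22% were higher, while Osbp no longer passed, at -0.27. The differences were then -1.22 (SE 0.39) for Mvd, 2.32-fold lower in HFD+WBM, and -1.12 (SE 0.34) for Fdps, 2.17-fold lower. After adjustment over all genes 0 of the 27 passed in limma, with a smallest adjusted p of 0.42. Nothing in the labels sets HFD replicate 1 apart from the other HFD mice, it was left out after its values were seen, and its removal favours a lower estimate for HFD+WBM by construction.

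The promoters of the enzymes were read for the letters that SREBP2 and its partner factors are known to bind, since the enzymes varied together. Entries of RefSeq (GRCm38.p6) were found for 15 of the 18 sterol enzymes and 7 of the 9 other genes, and none was printed for Fdps, Fdft1, Sqle, Npc1 and Stard4. In the 250 bases before the start, on both strands, the letters TCACNCCAC, a sterol response element core, stood in 1 of 15 enzymes (Hmgcs1, 137 bases before the start) and in 1.2% of the 15614 tested genes with an entry. The letters CCAAT, bound by the partner factor NF-Y, stood in 15 of 15 enzymes, in 6 of the 7 other genes and in 38.8% of the genes with an entry. The letters CACGTG stood in 3 of 15 enzymes (Hsd17b7, Sc5d and Dhcr7), in 1 of the 7 others (Dhdds) and in 8.11% of the genes with an entry. A gene was counted if the letters stood before any of its listed starts, and in Dhcr7 CACGTG and CCAAT stood before different starts. A match of letters is a description and no shown binding site, and the absence of the first motif says only that these letters were not in the window. The 150 bases before the start are given for an enzyme at the entry to the pathway with both motifs (Hmgcs1, chr13:119690201-119690350, plus strand), for the gene with the lowest estimate (Mvd, chr8:122443423-122443572, minus strand), for an enzyme of the last branch (Nsdhl, chrX:72918371-72918520, plus strand), and for the gene whose diet groups did not overlap (Osbp, chr19:11965694-11965843, plus strand). They are written 5′ to 3′ on the strand of the gene, and capitals mark CCAAT or its reverse complement ATTGG and, in Hmgcs1, the sterol response element core.
Hmgcs1: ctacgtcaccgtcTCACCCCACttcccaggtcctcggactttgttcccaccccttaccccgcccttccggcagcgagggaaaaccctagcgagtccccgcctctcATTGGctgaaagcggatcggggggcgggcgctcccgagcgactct
Mvd: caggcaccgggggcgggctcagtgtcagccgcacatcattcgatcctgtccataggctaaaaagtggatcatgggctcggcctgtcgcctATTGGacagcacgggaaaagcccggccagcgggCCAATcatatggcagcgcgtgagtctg
Nsdhl: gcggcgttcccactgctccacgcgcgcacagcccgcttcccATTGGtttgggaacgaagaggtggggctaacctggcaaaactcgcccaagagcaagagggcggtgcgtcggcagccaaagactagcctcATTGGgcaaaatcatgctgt
Osbp: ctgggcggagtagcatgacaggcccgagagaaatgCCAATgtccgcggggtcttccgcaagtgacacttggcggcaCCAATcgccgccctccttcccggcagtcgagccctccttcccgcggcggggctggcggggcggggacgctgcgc

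Both genes outside the sterol branches that passed before adjustment were lower in HFD+WBM. Osbp, which trades cholesterol for a phosphoinositide at contacts between the endoplasmic reticulum and the Golgi, gave log2 values of 9.73, 9.39, 9.50 and 9.63 in HFD, and of 9.34, 9.19, 9.15 and 9.26 in HFD+WBM. Every HFD mouse lay above every HFD+WBM mouse, which held for no other of the 27 genes in either direction, and for 5.02% of all genes in this direction and 3.21% in the other. The mean was 9.56 ± 0.15 in HFD and 9.24 ± 0.09 in HFD+WBM (SD, n = 4 each). The difference was -0.33 (SE 0.14), with a 95% interval of -0.64 to -0.01, an adjusted p of 0.41 in limma and an exact permutation p of 0.029, the smallest that 4 against 4 mice can give. The other transfer proteins did not pass, at 0.15 for Stard4 and 0.02 for Stard5, carriers that bind sterols and related lipids in the cytosol.

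Dhdds is a subunit of the enzyme that builds the dolichol chain, the carrier of sugars for protein glycosylation, from farnesyl diphosphate. Its log2 values were 9.07, 8.95, 9.16 and 9.23 in HFD, and 8.97, 8.34, 8.53 and 8.71 in HFD+WBM. The groups overlapped by HFD replicate 2 and HFD+WBM replicate 1 alone, and HFD replicate 1 lay among its group, unlike in the sterol enzymes. The mean was 9.10 ± 0.12 in HFD and 8.64 ± 0.27 in HFD+WBM (SD, n = 4 each). The difference of -0.46 (SE 0.17), 1.38-fold lower in HFD+WBM, had a 95% interval of -0.84 to -0.08, an adjusted p of 0.39 in limma and an exact permutation p of 0.057. Ggps1, which makes geranylgeranyl diphosphate from the same precursor, gave a difference of 0.09 (SE 0.18).

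Among the 4 uptake genes 0 passed, and 3 of the 4 estimates lay above 0. Npc1, the membrane protein that brings cholesterol out of late endosomes and lysosomes, gave log2 values of 11.33, 11.60, 11.26 and 11.60 in HFD, and of 11.56, 11.70, 12.12 and 11.79 in HFD+WBM. Of the HFD+WBM mice 3 lay above all HFD mice, and HFD+WBM replicate 1 lay just under the upper HFD mice. The mean was 11.45 ± 0.18 in HFD and 11.79 ± 0.24 in HFD+WBM (SD, n = 4 each), a difference of 0.34 (SE 0.17) with a 95% interval of -0.04 to 0.73 and an adjusted p of 0.46 in limma. Npc2, the lumenal protein that hands cholesterol to Npc1, had an estimate of the opposite sign at -0.29 (SE 0.18). Lrp1, an endocytic receptor for lipoprotein remnants, ran from 11.33 to 11.58 in HFD and from 11.52 to 11.83 in HFD+WBM, a difference of 0.21 (SE 0.14). Npc1l1, a sterol uptake protein of cell surfaces, gave 0.34 (SE 0.20) and was the only one of the 27 genes in the dimmer 50% of all genes tested.

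**Figure D3:**
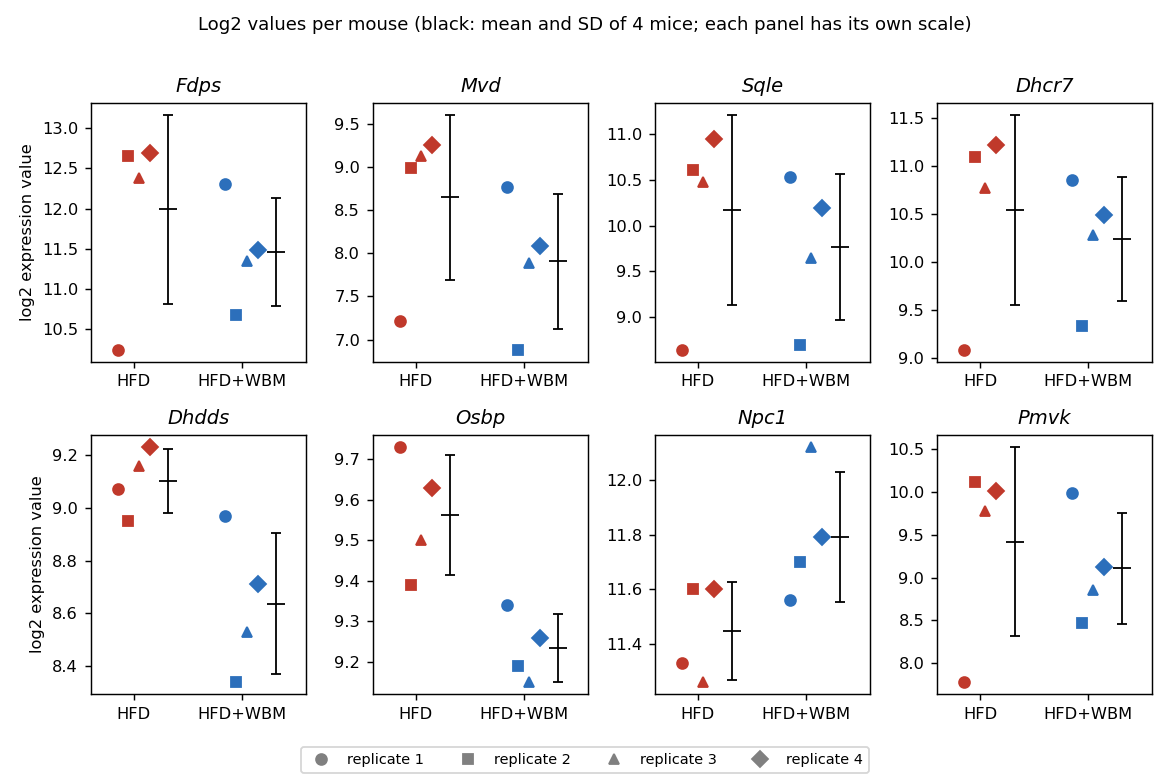
Points are the log2 values of single mice for 8 of the genes, with symbols for the replicate number and black bars for the mean and SD of 4 mice per diet. Each panel has its own scale. HFD replicate 1 stands low in Pmvk, Mvd, Fdps, Sqle and Dhcr7 and within or at the top of its group in Dhdds and Osbp.

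Of the genes of the SREBP factors and of the proteins that control their release, 6 of 7 listed were measured. Before adjustment 1 was lower and 0 were higher, against 6.9% and 4.85% of all genes, with a median log2 difference of -0.15. The one was Insig2, which holds the SREBP and SCAP complex in the endoplasmic reticulum. It gave log2 values of 10.64, 10.87, 11.48 and 11.51 in HFD, and of 10.66, 10.33, 9.98 and 10.58 in HFD+WBM. The groups overlapped only by HFD replicate 1 and HFD+WBM replicate 1. The difference was -0.74 (SE 0.25), 1.67-fold lower in HFD+WBM, with an adjusted p of 0.38 in limma and an exact permutation p of 0.057.

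Srebf1, the gene of the related factor SREBP1 of fatty acid synthesis, had the next smallest p of that list, with a difference of -0.50 (SE 0.33), and Srebf2 itself gave 0.08 (SE 0.21). Insig1, itself a known SREBP target, gave a difference of -0.07. Its log2 values were 11.81, 12.93, 12.83 and 12.73 in HFD, and 13.04, 12.28, 12.35 and 12.34 in HFD+WBM. HFD replicate 1 was thus again the lowest of the 8 mice, while HFD+WBM replicate 1 was the highest.

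Of other sterol handling genes 10 of 11 listed were measured, and 2 were lower and 0 were higher at a p under 0.05 before adjustment, against 6.9% and 4.85% of all genes. Their median log2 difference was -0.09. Gramd1c, of a family that carries cholesterol from the plasma membrane to the endoplasmic reticulum, gave log2 values of 9.57, 9.45, 9.41 and 9.35 in HFD, and of 9.07, 8.66, 8.63 and 8.84 in HFD+WBM. The groups did not overlap, which held in this direction for 5.02% of all genes. The difference of -0.64 (SE 0.15) had an adjusted p of 0.36 in limma. The exact permutation p was 0.029, the value that any such separation gives. Lrpap1, a chaperone that escorts Lrp1 and its relatives to the cell surface, was lower by an estimate of -0.52 (SE 0.18), from 8.58 to 9.20 in HFD to 8.23 to 8.64 in HFD+WBM.

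Of the genes that use isoprenoids for ubiquinone, prenylated proteins and dolichol, 8 of 9 listed were measured. Before adjustment 2 were lower and 0 were higher, against the same 6.9% and 4.85% of all genes, and the median log2 difference was -0.15. Coq2, the prenyltransferase of ubiquinone synthesis, gave log2 values of 8.10, 7.93, 8.22 and 8.10 in HFD, and of 7.81, 7.56, 7.57 and 7.77 in HFD+WBM. The groups did not overlap, as for 5.02% of all genes in this direction. The difference of -0.41 (SE 0.14) had an adjusted p of 0.38 in limma. The exact permutation p was again 0.029, as any such separation gives. Fntb, the beta subunit of protein farnesyltransferase, ran from 5.76 to 6.47 in HFD and from 5.47 to 5.99 in HFD+WBM, a difference of -0.54 (SE 0.21). It lay in the dimmer 50% of all genes tested.

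**Figure D4:**
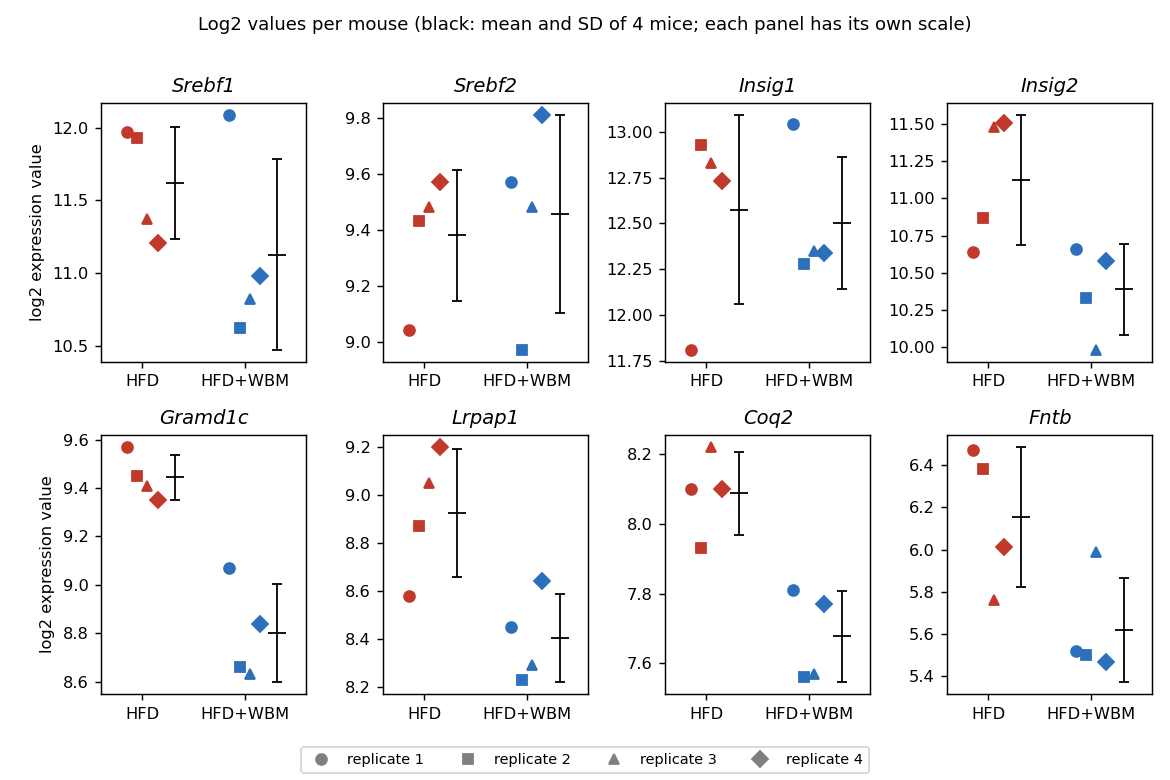
Points are the log2 values of single mice for 8 other genes of the pathway, with the mean and SD of 4 mice per diet in black and a scale of its own for each panel. The groups are apart in Gramd1c and Coq2 and overlap in the others, and HFD replicate 1 is the lowest mouse in Insig1 with a value of 11.81.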

How the data were processed

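Liver RNA of 8 OVX mice, 4 per diet, was hybridized to Affymetrix Mouse Gene 1.0 ST arrays, and samples were grouped by the submitters' titles. The authors used Affymetrix Power Tools 1.8.6 for background correction, normalization and IterPLIER summaries, and deposited log2 values for 28944 probe sets. The kind of normalization and any offset added ahead of the log are not stated in the sources used here. Arrays have no read depth, so that their number limits the precision, and no detection calls were used, so that dim values carry no background limit.

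Of the probe sets 21789 name 1 gene in the platform annotation, 1621 name several and 5534 are unnamed. Names were checked against GRCm38.p6, where 21698 matched. The brightest probe set was kept per gene, and 19938 genes were tested with limma 3.58.1 (R 4.3.3) in a model of diet alone, with Benjamini-Hochberg adjustment over all genes. The fit was tested on simulated data with independent normal values for each gene and planted changes. That setting leaves out genes that vary together and a mouse that stands apart, so it does not cover those cases. Exact two-sided permutation tests over the 70 divisions of the mice stand beside the limma fit. The genes, lists and tests were chosen with earlier results of these data known. Mouse values are given for genes past p under 0.05 before adjustment, genes without overlap, the largest change of each branch and the 3 widest ranges, and for the 2 smallest p of each other list (as ranges for Lrpap1 and Fntb, and for Srebf1 in the plot). Srebf2, Insig1, Msmo1 and the markers' Alb were named after their values were seen. Alternatives were centring, quantile normalization, offsets, a filter on dim genes, all probe sets, array weights, a prior variance following the signal, an equal-variance test, the replicate number as a block, and each mouse left out.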

Additional observations from a re-analysis of the deposited data

Results flagged for a closer look

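In 8 of 56 sets of 4 mice examined, 1 mouse stood apart from the other 3 by a share of its group's range above the 95% critical value of Dixon's test, where chance alone gives about 1 in 20. All 8 were in the HFD group, and the genes share the mice, so that they are not independent. HFD replicate 1 was the low mouse in 7 sterol enzymes. The gap was 0.855 of the range for Pmvk (log2 value 7.78), 0.87 for Mvd (7.22) and 0.875 for Fdps (10.24) in the mevalonate branch. It was 0.838 for Lss (8.55) in the squalene branch, and 0.841 for Tm7sf2 (11.17), 0.848 for Nsdhl (9.64) and 0.945 for Sc5d (12.50) in the lanosterol branch. For Ggps1, of the non-sterol branch, HFD replicate 4 was the low mouse with a gap of 0.864 (7.50).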

How the results depend on the processing

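The number of genes lower in HFD+WBM before adjustment, 2 of 27, was 1 with arrays centred on their median, with quantile normalization, with 16 added before the log and with the replicate block, and 3 with an offset of 64 or a prior variance following the signal. It ran from 0 to 9 when each mouse was left out, with 9 without HFD replicate 1, and 0 without HFD replicate 4, HFD+WBM replicate 2 or HFD+WBM replicate 3. It was 1 without HFD replicate 3, the array farthest from the others, or without HFD+WBM replicate 4. The number of higher genes, 0, was 1 (Npc1) among the 50% brightest genes, with the offset of 64 and with the prior following the signal, and ran from 0 to 1 with a mouse left out (Npc1l1 without HFD replicate 2, Npc1 without HFD+WBM replicate 1). Osbp lost its call in each setting that gave 0, 1 or 9, Mvd gained one with the offset of 64, the prior following the signal and without HFD replicate 1, and Dhdds kept it in all but the 3 that gave 0. No gene of the set passed adjustment under any setting run, although the count over all genes, 0, became 19 among the brightest genes, 2 and 80 with the offsets of 16 and 64, 139 with the prior following the signal and 1 without HFD+WBM replicate 2. The median of the 18 sterol enzymes stayed below 0 throughout, at -0.27 to -0.15 with all mice and from -0.53 (without HFD replicate 1) to -0.05 (without HFD+WBM replicate 2) with a mouse left out. The cause of these shifts was not tested.

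The labels give both diets the replicate numbers 1 to 4, but same-numbered mice did not deviate together (correlations of -0.12 to -0.02 over genes). Nothing says that a number marks a shared litter or day, and a check on so few mice cannot settle whether it does. The main test therefore did not pair the mice by number. With the replicate block, 1 gene was lower (Dhdds), 0 were higher and the sterol median was -0.20.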
